A study of Homo sapiens with 9 samples.

Results

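The RNA of MCF10A cells that carried the second of 2 hairpins against CHAF1B (shCHAF1B-2) was compared with that of cells that carried a hairpin against green fluorescent protein (shGFP), gene by gene over the whole transcriptome. The libraries were chosen by their labels alone: 3 of shCHAF1B-2 and 3 of shGFP, 6 of the 9 in the series. The 3 libraries of the first hairpin (shCHAF1B-1) took part in the shared fit and were used to ask where the second differs from it. MCF10A is an immortal, non-tumorigenic line from human breast epithelium, kept in medium with horse serum, insulin, cholera toxin, epidermal growth factor (EGF) and hydrocortisone. Every group, the control included, received a lentiviral pLKO.1 hairpin vector, was put under puromycin at 2 µg/mL from 24 hours after transduction, and gave its polyadenylated RNA 3 days after infection. The labels name no cloning step, and they do not say whether libraries of one group came from separate cultures, so each p-value measures only the spread between these libraries, which may be technical.

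CHAF1B is the middle subunit of chromatin assembly factor 1 (CAF-1), a complex of CHAF1A, CHAF1B and RBBP4 that travels with the replication fork and deposits newly made histones H3 and H4 on copied DNA. The chaperones ASF1A, ASF1B and NASP hand it the histone pairs. Loss of CAF-1 leaves newly copied DNA short of nucleosomes, and the complex is known in several cell types for keeping genes of other cell identities silent.

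The 6 libraries held between 24339914 and 27471236 counts over genes, and 3 counts, taken as the floor below which a level was not resolved, equalled 0.105 to 0.126 CPM, the count of a gene relative to the scaled total of its library. The first principal component of the log levels carried 73% of the variance, with the shGFP libraries between -38.6 and -37.2 and the shCHAF1B-2 libraries between 37.6 and 38.5. The second carried 9.98% and set shCHAF1B-2 replicate 3 apart at -25.7, against 9.61 and 16.4 for its partners. In protein-coding genes of at least 5 CPM in shGFP, the median log2 difference of that library from its partners went from 0.14 in the eighth with the shortest exon length to -0.09 in the eighth with the longest. Between the groups the median log2 fold change went the other way over the same eighths, from -0.09 to 0.06, and from -0.13 to 0.08 without replicate 3. The part of this length trend in the results below was not tested.

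All 12 markers of mammary epithelium were above 1 CPM in both groups, and their summed level was 11511 to 12566 CPM in shGFP and 10772 to 11403 CPM in shCHAF1B-2. Of 14 B lymphocyte markers 1 was at or above 1 CPM in each group (summed 2.87 to 4.35 against 3.36 to 3.61 CPM), and it was not the same gene. In shGFP it was CR2, which fell from 1.40 to 0.573 CPM (log2 fold change -1.28). In shCHAF1B-2 it was CD37, at 0.972 and 1.10 CPM, which did not pass. Of 12 T lymphocyte markers, 5 of which were in the table, none reached 1 CPM (0.21 to 0.32 against 0.42 to 0.63 CPM). Myeloid markers summed to 29.3 to 33.3 CPM in shGFP and 51.4 to 54.6 CPM in shCHAF1B-2, through MPO and CD14, while CD68 and CD33 stayed under 0.1 CPM in the mean of both groups. Endothelial markers summed to 4.19 to 4.88 against 11.1 to 13.0 CPM, with PECAM1 at 2.36 and 8.99 CPM and VWF at 0 and 0.0540 CPM. Fibroblast markers summed to 43.6 to 46.9 against 57.2 to 58.4 CPM, with COL1A1 and FAP up and DCN down, and neuronal markers to 13.6 to 15.1 against 12.2 to 13.7 CPM. In RNA from whole cultures, fewer cells of a kind and less RNA per cell cannot be told apart, and the part of these markers in the results was not tested.

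CHAF1B was cut to 8.54% of its control level by the second hairpin. The gene lies on chromosome 21 from 36385378 to 36419015 on the plus strand (GRCh38). Its level was 35.2, 41.0 and 36.8 CPM in the shGFP libraries and 2.66, 3.88 and 3.07 CPM in the shCHAF1B-2 libraries, so the groups lay far apart. The log2 fold change was -3.55 (SE 0.136, adjusted p = 1.6e-10; adjusted p-values are from edgeR's quasi-likelihood test with Benjamini-Hochberg adjustment over all genes tested, here and below). This is the largest fall among the protein-coding genes that met the rule for named genes.

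Many of the genes tested moved with the second hairpin, in a share that depended on the processing. An adjusted p under 0.05 was reached by 8324 of the 16235 genes tested (51.3%); these are the genes said to have risen or fallen. The 4328 that rose made up 26.7% of the genes tested and the 3996 that fell made up 24.6%. Most changes were small: the median log2 fold change was 0.48 among the genes that rose and -0.42 among those that fell. At least 2-fold changes were rarer and lay mostly upward, with 897 genes up (5.53%) and 378 down (2.33%), and at 4-fold the counts were 234 up and 22 down. The 3 shCHAF1B-2 libraries lay wholly above the 3 shGFP libraries in 4760 genes (29.3%) and wholly below them in 4511 (27.8%). Of the genes that rose at least 2-fold, 458 averaged under 1 CPM in shGFP, and of the 378 that fell at least 2-fold, 204 averaged under 1 CPM in shCHAF1B-2. Protein-coding genes rose in 3985 and fell in 3525 of 12699 cases, and lincRNA genes in 100 and 94 of 547. Genes annotated as antisense rose in 83 and fell in 136 of 815, but the library kit does not mark the strand, so their reads and those of the overlapping gene cannot be told apart.

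**Figure D1:**
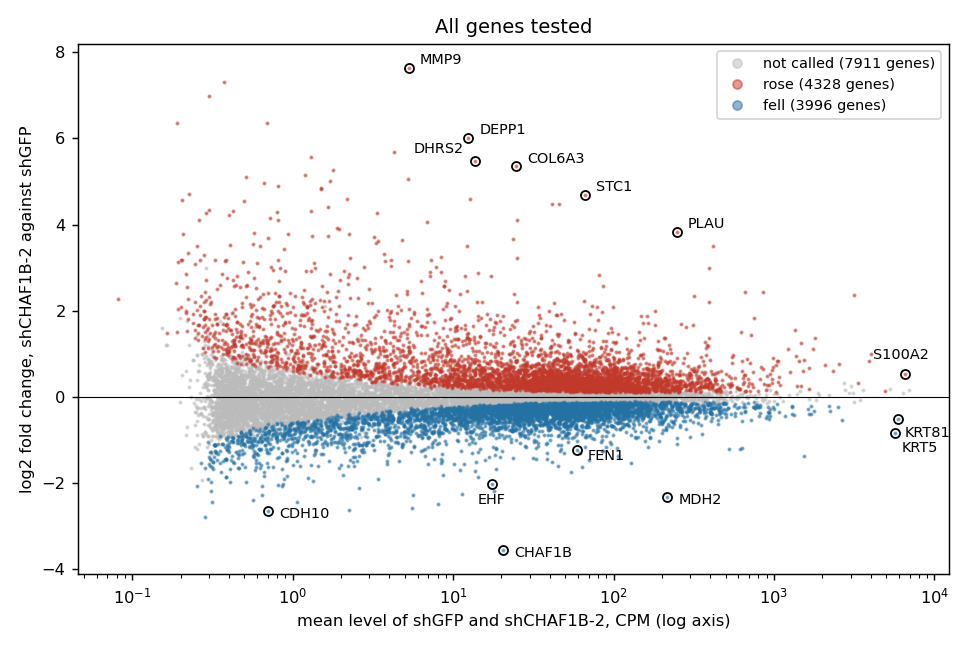
Log2 fold change of shCHAF1B-2 against shGFP (vertical axis) for each of the 16235 genes tested, against the mean level of both groups in CPM (horizontal log axis); red points rose, blue points fell and grey points did not pass. The rises reach 7.63 (MMP9) and the falls of the circled genes reach -3.55 (CHAF1B), while KRT5 and S100A2 are among the most abundant genes that changed.

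Among the 14 genes with the largest rises were the metalloproteinases MMP9 and MMP1, the cytokine CSF2, the collagen chain COL6A3 and the hormone STC1. MMP9, the gelatinase that cleaves denatured collagen and basement membrane, stood at 0.0385, 0.0717 and 0.0351 CPM in shGFP and at 10.3, 10.9 and 10.4 CPM in shCHAF1B-2 (log2 fold change 7.63, SE 0.191, adjusted p = 2.7e-12). Only 4 MMP9 counts were seen over the shGFP libraries together, and the ratio of levels was 217 with a 95% counting interval of 84.6 to 800. The SE of MMP9, worked back from the test statistic, implies a narrower range and does not give the precision of this ratio. MMP9 was therefore below the floor in every control library, so its control level was not resolved, and it was clearly present in every knockdown library. CSF2, the cytokine GM-CSF, had 1 count in all of shGFP and reached 1.16, 1.29 and 1.68 CPM (ratio 114, 95% counting interval 19.9 to 4526). PRSS22, a secreted serine protease, went from 4 counts in shGFP to 2.45, 2.39 and 2.77 CPM (ratio 52.2, interval 20.1 to 194).

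COL6A3, a chain of the microfibrillar collagen VI, rose from 1.12, 1.25 and 1.16 CPM to 44.9, 52.0 and 48.1 CPM (log2 fold change 5.35, SE 0.0967, adjusted p = 1.2e-13). STC1, the secreted glycoprotein stanniocalcin, had the highest level of the 14 genes with the largest rises, going from 4.89, 4.66 and 5.26 CPM to 128, 129 and 125 CPM (4.69, SE 0.0595, adjusted p = 6.5e-15). Both genes were high in all 3 knockdown libraries. That no library of one group lay inside the range of the other was required by the rule for named genes. DEPP1, a gene induced by FOXO factors, rose from a mean of 0.375 ± 0.0712 to 24.5 ± 1.96 CPM and DHRS2, a short-chain dehydrogenase, from 0.596 ± 0.131 to 26.8 ± 1.183 CPM (SD, n = 3 each). CHRNA9, a subunit of nicotinic acetylcholine receptors, rose from 1.02 ± 0.132 to 24.6 ± 1.48 CPM. TRPV3, a warmth-gated cation channel of keratinocytes, reached 8.28, 9.11 and 7.69 CPM from at most 0.246 CPM.

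MMP1, the interstitial collagenase, reached 3.83, 2.94 and 3.66 CPM from 7 counts in shGFP (ratio 40.8, 95% counting interval 19.5 to 102). MPO, the myeloperoxidase of neutrophil granules, reached 8.61, 10.4 and 11.7 CPM from 25 counts (ratio 33.7, interval 22.7 to 52.4), and CYTH4, an exchange factor for ARF GTPases known from leukocytes, reached 2.5, 2.32 and 2.14 CPM from 5 counts (38.2, interval 16.1 to 119). These are transcripts of blood cells by their usual place of expression, and of the other myeloid markers tested CD14 rose (log2 fold change 0.84), while CSF1R and ITGAM did not pass (0.04 and 0.53). IGFN1, a protein of the muscle Z-disc, was uneven among the knockdown libraries at 2.29, 4.16 and 2.27 CPM, and DNAH3, a dynein chain of cilia, stood at 3.24, 2.87 and 2.56 CPM; each had 8 counts in shGFP.

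**Figure D2:**
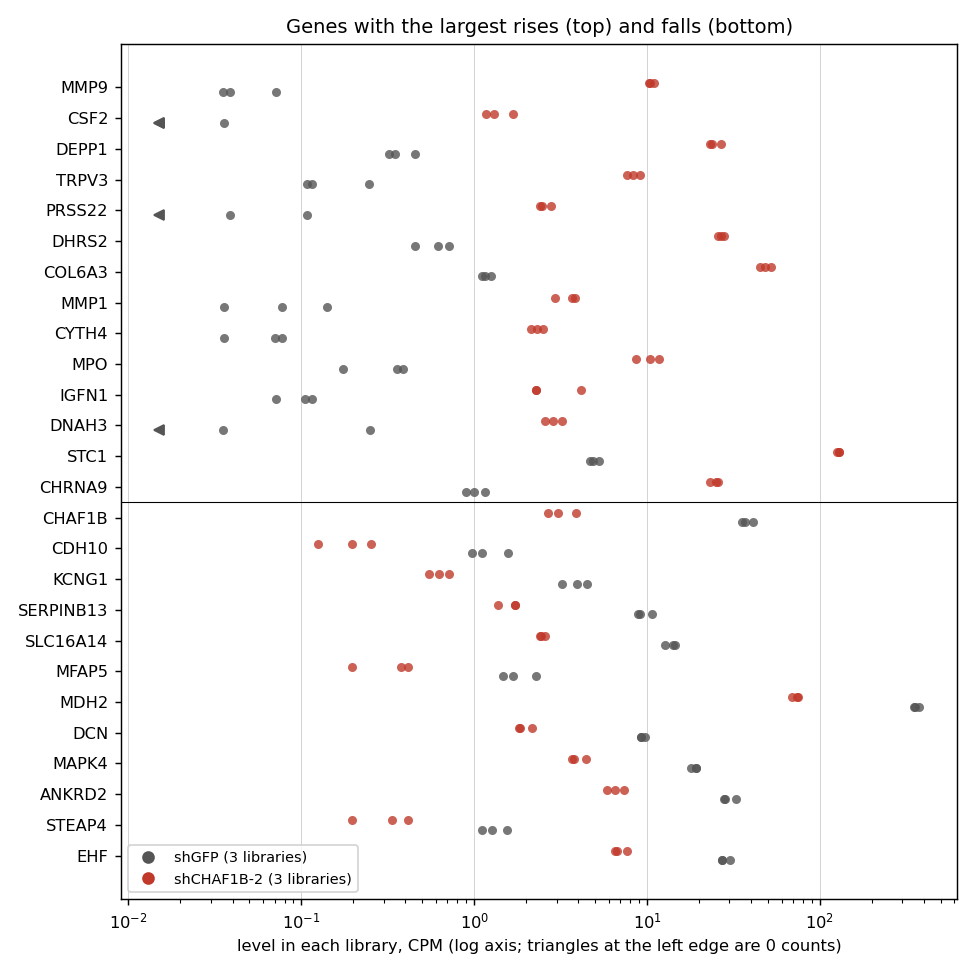
Level in each library, in CPM on a log axis, of the 14 genes with the largest rises (above the line) and the 12 with the largest falls (below it); grey points are the 3 shGFP libraries, red points the 3 shCHAF1B-2 libraries, and triangles at the left edge mark 0 counts. The groups are separate in each gene because the rule for naming them required it. The genes run from MMP9 (at most 0.0717 CPM in shGFP) to EHF (at least 27.1 CPM in shGFP and at most 7.65 CPM in shCHAF1B-2).

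After CHAF1B, the largest falls were those of CDH10, KCNG1, SERPINB13, SLC16A14 and MFAP5, and MDH2 was the most abundant of the 12 genes. MDH2, the mitochondrial malate dehydrogenase of the citric acid cycle (chromosome 7, 76048051 to 76067508, plus strand), stood at 356, 377 and 350 CPM in shGFP and at 69.4, 74.0 and 74.6 CPM in shCHAF1B-2 (log2 fold change -2.31, SE 0.0550, adjusted p = 1.7e-12). EHF, an ETS factor of epithelial cells, stood at 27.1, 27.3 and 30.1 against 6.70, 6.51 and 7.65 CPM (-2.02, SE 0.103, adjusted p = 2.7e-09). ANKRD2, an ankyrin repeat protein known from muscle, went from 29.6 ± 2.61 to 6.58 ± 0.758 CPM and MAPK4, an atypical MAP kinase, from 18.8 ± 0.717 to 3.96 ± 0.432 CPM (SD, n = 3 each). Each was lower in every knockdown library than in any control library, which the rule for named genes required.

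SLC16A14, an orphan member of the monocarboxylate transporter family, was at 12.7, 14.1 and 14.4 against 2.58, 2.43 and 2.40 CPM, and SERPINB13, a protease inhibitor of stratified epithelia, at 8.90, 9.06 and 10.7 against 1.37, 1.73 and 1.72 CPM. DCN, the matrix proteoglycan decorin, was at 9.17, 9.24 and 9.72 against 2.16, 1.84 and 1.81 CPM, and MFAP5, a glycoprotein of elastic microfibrils, at 2.27, 1.68 and 1.47 against 0.416, 0.196 and 0.378 CPM. The remaining genes of this set were CDH10, a type II cadherin (log2 fold change -2.65, SE 0.325), KCNG1, a modifier subunit of voltage-gated potassium channels (-2.62, SE 0.212), and STEAP4, a metalloreductase (-2.04, SE 0.286), each under 5 CPM in shGFP.

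A hairpin RNA is cut by Dicer into a small RNA that, besides its full target, can pair with other messages through the short seed near its 5′ end, as a microRNA does. An earlier account of these data had picked out 3 overlapping words of 7 bases in falling genes: AAGCCGT, then AGCCGTC, shifted by 1 base, and then, shifted by 1 more, GCCGTCA. They are described here for this hairpin without a test. The hairpin sequences were not used here, so a match to either strand of the hairpin was not tested. Of the 18 falling genes named for their fold change or loss of abundance, 6 hold at least 1 of the 7-mers in their longest GENCODE transcript. These 6 include the hairpin's own target, and over all genes tested 18.3% hold one. The falls were not particular to the second hairpin. With the first, against the same shGFP libraries, the log2 fold changes were -3.50 (CHAF1B), -2.25 (MDH2), -2.13 (STEAP4), -2.62 (SLC16A14), -2.20 (SERPINB13) and -2.71 (MFAP5). The stretches of these 6 genes follow to show the 7-mers in their setting. Capitals mark only the 7-mer or the run of overlapping 7-mers, read 5′ to 3′ on the transcript.
CHAF1B coding sequence: tcgtcataccaAAGCCGTCAatgttgtgcg
MDH2 3′ UTR, first stretch: atgtcactgcaAAGCCGTtgcagataaac
MDH2 3′ UTR, second stretch: cgcatcaataaAAGCCGTCcttgattttat
STEAP4 3′ UTR: atgcaataaagAAGCCGTCcaaaacctacc
SLC16A14 3′ UTR: ttccttagcagAAGCCGTatttgtacgca
SERPINB13 coding sequence: attcacttggcGCCGTCAgcactcgactt
MFAP5 coding sequence: agatgagctttGCCGTCAgatggctggtc

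The run in CHAF1B spans 9 bases, and those in STEAP4 and in the second MDH2 stretch span 8. Among all genes tested whose longest transcript holds any of the 7-mers in its 3′ UTR, 263 of 683 (38.5%) fell, 35 of the 683 (5.12%) at least 2-fold, 172 rose, and the median was -0.12. Where none of the 7-mers occurs in the transcript, 23.0% of 13266 genes fell, 2.19% fell at least 2-fold, and the median was -0.00. The 13266 include genes without a coding sequence, which cannot hold a 3′ UTR match. Among all genes with a coding sequence 27.4% of 10894 fell, 2.03% fell at least 2-fold, and the median was 0.01. Of 579 genes with AAGCCGT in the coding sequence 35.1% fell (median -0.09). With AGCCGTC there 33.6% of 604 fell (-0.04) and with GCCGTCA 28.8% of 694 (-0.00). Transcripts with a 7-mer in the 3′ UTR were longer, with a median of 5139 bases against 2899 for those with none anywhere. The latter include transcripts without a coding sequence. The part of length and of gene type in these shares was not tested.

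Measured by RPKM (CPM divided by the exon length in kilobases), which allows levels of different genes to be set side by side, large gains lay in small abundant proteins. S100A6, a calcium-binding protein of growing epithelial cells, stood at 2509, 2859 and 2715 CPM in shGFP and at 5121, 4897 and 6027 CPM in shCHAF1B-2, and rose from 2775 to 5508 RPKM. S100A2, a calcium-binding protein of basal epithelium, rose from 3420 to 4962 RPKM, S100A11 from 1100 to 1962 RPKM, and TMSB10, an actin-binding thymosin, from 3748 to 5660 RPKM. MT2A, a metal-binding metallothionein, rose from 2168 to 3869 RPKM. In S100A2 shCHAF1B-2 replicate 3 was the highest library at 9034 CPM, against 7200 and 7092 CPM for its partners.

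The largest losses by RPKM were in keratins, an amino acid transporter and the translation machinery. KRT5, the keratin of basal cells, stood at 7089, 7636 and 7066 CPM against 3924, 4092 and 4103 CPM and fell from 1692 to 941 RPKM. KRT81, a keratin of hair, fell from 3590 to 2533 RPKM; its near-identical relatives make its count uncertain. SLC7A5, the light chain of the LAT1 transporter for large neutral amino acids, stood at 2205, 2353 and 2076 CPM against 827, 876 and 852 CPM (log2 fold change -1.38, SE 0.0619, adjusted p = 8.4e-10). EEF2, the translocase of elongating ribosomes, fell from 786 to 540 RPKM, and the ribosomal proteins RPS12 and RPS6 fell from 795 to 609 and from 694 to 525 RPKM.

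Lists of genes by role were then read against the whole table, in which 26.7% of genes rose, 24.6% fell and the median log2 fold change was -0.01. Of 24 genes of CAF-1 and of H3 and H4 chaperones, 14 fell and 1 rose (median -0.23). CHAF1A, the large CAF-1 subunit, stood at 50.6, 52.3 and 50.8 CPM against 33.0, 32.5 and 33.9 CPM (log2 fold change -0.63, SE 0.0481, adjusted p = 1.4e-07), and the third subunit, RBBP4, fell by 0.39 on the log2 scale (SE 0.0423). MCM2, which carries parental histones as part of the replicative helicase, fell by 0.74 and ASF1B, the chaperone isoform of dividing cells, by 0.64. ASF1A, its partner isoform in replication-independent deposition, was the 1 that rose, from 23.9, 23.5 and 26.1 to 30.8, 28.9 and 32.9 CPM (0.33, SE 0.0638). DAXX and ATRX, the chaperone pair for H3.3 at repeats, did not pass (0.11 and 0.05).

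Of 22 replication-dependent histone genes that could be tested, out of 41 listed, 13 rose and none fell (median 0.72, and 0.57 without shGFP replicate 1). HIST1H2AC was at 21.1, 18.6 and 19.2 CPM against 52.1, 45.8 and 54.2 CPM (log2 fold change 1.37, SE 0.0707, adjusted p = 3.0e-09), HIST1H2BC at 2.35, 2.22 and 2.39 against 9.02, 8.09 and 10.2 CPM, and HIST1H4H at 1.58, 1.33 and 1.26 against 5.53, 4.83 and 5.17 CPM. Each was higher in all knockdown libraries. HIST2H2BE rose by 1.31. The 13 are H2A, H2B, H4 and linker H1 genes; the 3 H3 genes tested, HIST1H3G, HIST1H3E and HIST1H3H, did not pass (-0.19, 0.10 and 0.36). Most messages of this family end in a stem-loop in place of a poly(A) tail, so these libraries hold only their polyadenylated part, and near-identical copies make single values uncertain.

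Genes of origin licensing and of the replication fork fell almost throughout: 48 of 53 fell, 1 rose, and the median was -0.54 on the log2 scale. FEN1, which trims the flaps of Okazaki fragments, stood at 79.0, 84.4 and 84.2 CPM against 33.7, 34.4 and 38.2 CPM (-1.22, SE 0.0562, adjusted p = 1.1e-09). MCM10, which helps to activate the replicative helicase, was at 42.1, 47.4 and 47.5 against 16.4, 17.5 and 17.2 CPM (-1.42, SE 0.0666), and ORC1, the largest origin recognition subunit, at 38.7, 39.5 and 37.2 against 22.0, 21.1 and 21.6 CPM (-0.83, SE 0.0527). All 6 subunits of the MCM helicase, MCM2 to MCM7, fell by between 0.37 and 0.77. POLD4, the small accessory subunit of polymerase delta, was the gene that rose (from 4.70, 5.41 and 4.91 to 7.69, 8.16 and 9.21 CPM), and PCNA, the sliding clamp, did not pass (0.14, SE 0.0577, adjusted p = 0.065).

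Mitotic genes fell as well, 43 of 48, and none rose (median -0.43). NCAPD2, a condensin subunit, was at 217, 229 and 220 CPM against 112, 122 and 115 CPM (log2 fold change -0.93, SE 0.0478, adjusted p = 2.8e-09). CCNB2, a cyclin of mitotic entry, was at 76.4, 78.9 and 82.8 against 38.1, 38.4 and 41.0 CPM (-1.02, SE 0.0544), and BIRC5, or survivin, at 113, 123 and 115 against 59.8, 61.7 and 67.3 CPM (-0.89, SE 0.0535). The proliferation marker MKI67 fell by 0.42. Among 22 cyclins, kinases, inhibitors and E2F factors of the G1 phase the picture was mixed, with 6 up and 9 down. The inhibitors CDKN1A (p21), CDKN1B (p27) and CDKN2D (p19) rose, CDKN1A from 488, 534 and 480 to 736, 744 and 794 CPM (0.60, SE 0.0588) and CDKN2D from 3.47, 3.58 and 3.51 to 7.19, 8.24 and 7.99 CPM (1.15, SE 0.103), as did cyclin D1 (CCND1, 0.45). E2F1, E2F2 and CDK2 fell by 0.82, 0.73 and 0.56, and a further inhibitor, CDKN1C (p57), fell by 1.23.

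Of 28 known p53 targets more fell than rose, 16 against 7 (median -0.17). PMAIP1, the pro-apoptotic NOXA, rose from 13.3, 14.1 and 14.6 to 38.2, 34.7 and 37.9 CPM (log2 fold change 1.40, SE 0.0671), TP53INP1, a p53 cofactor, by 0.96 and the death receptor FAS by 0.41. CCNG1, cyclin G1, fell from 388, 384 and 407 to 209, 199 and 214 CPM (-0.92, SE 0.0458), and TP53I3 and the repair factor DDB2 fell by 0.69 and 0.53.

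Promoters of replication genes often carry sites for E2F and those of mitotic genes the cell cycle homology region (CHR), bound by the DREAM and MMB complexes, with CCAAT boxes for NF-Y in both. Both strands of RefSeq promoter windows, 250 bases before to 50 after the start (GRCh38.p14), were searched for TTTCCCGC or TTTGGCGC (E2F), TTTGAA (CHR), CCAAT (NF-Y) and TGANTCA (AP-1). Of 16235 genes tested, 11035 had a window. The E2F words occurred in 17 of 45 windows of the licensing and fork genes (37.8%) against 3.66% of all windows, and TTTGAA in 26 of 40 mitotic windows (65%) against 9.75%. CCAAT occurred in 57.8% and 70% of the windows of these lists, against 36.6% of all. The words can overlap one another. These lists are known for such motifs, so the shares describe the members and are not a result of the knockdown; in genes that fell at least 2-fold the E2F words occurred in 2.16% and TTTGAA in 15.5% of 232 windows.

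The stretches below show the matches, in capitals, in members that fell with the smallest adjusted p among those with a match upstream of the start; these members were chosen after their values were seen. Sequences read 5′ to 3′ in the direction of the gene.
NCAPD2 (CHR, chr12:6493946-6493973, plus strand): agccgttgagaTTTGAActcggtatttg
CCNB2 (CHR, chr15:59105106-59105133, plus strand): gcgacgcggtaTTTGAAtcctggaacaa
ESPL1 (CHR, chr12:53268257-53268284, plus strand): agccgcggataTTTGAAaggagggtctg
MCM3 (E2F, chr6:52284898-52284927, minus strand): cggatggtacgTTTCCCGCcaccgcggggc
MCM7 (E2F, chr7:100101566-100101595, minus strand): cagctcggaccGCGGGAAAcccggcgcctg
TYMS (E2F, chr18:657603-657632, plus strand): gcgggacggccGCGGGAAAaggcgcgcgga

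The matches lie 139, 23 and 25 bases before the start in NCAPD2, CCNB2 and ESPL1, and 166, 179 and 31 bases before it in MCM3, MCM7 and TYMS, where GCGGGAAA is the same E2F word on the other strand. ESPL1, the separase that cleaves cohesin, fell by 1.10 on the log2 scale, MCM3 and MCM7 by 0.62 each, and TYMS, the thymidylate synthase, by 0.66.

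**Figure D3:**
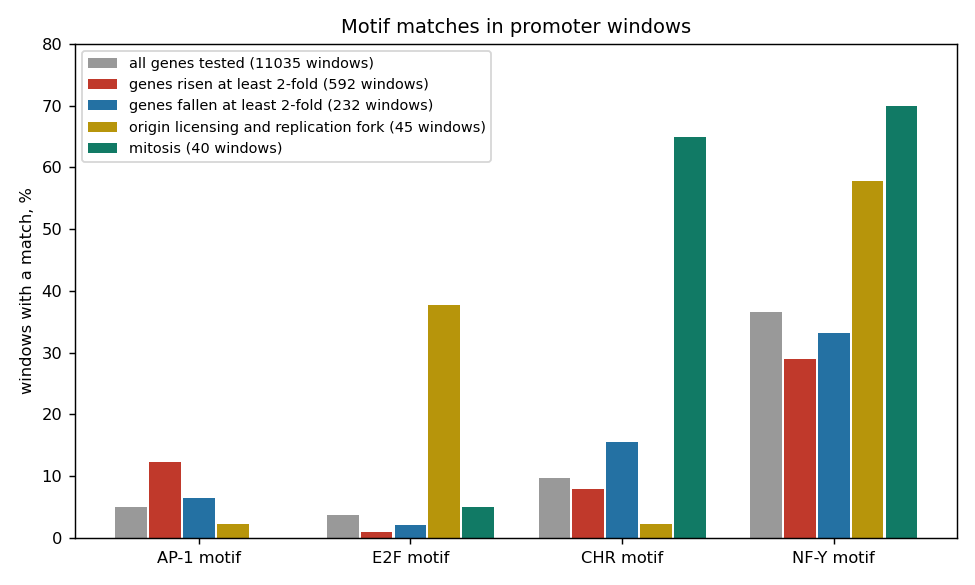
Share of promoter windows with at least 1 match to each motif, in percent on an axis from 0, for all genes tested, genes risen or fallen at least 2-fold, and the lists of licensing and fork genes and of mitosis. The E2F bar stands out in the licensing and fork genes (37.8%), the CHR bar in the mitotic genes (65%), and the AP-1 bar is 12.3% in the risen genes against 4.97% in all.

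Enzymes that break down matrix and activate plasminogen rose as a group, with 22 of 30 up, 14 of them at least 2-fold, and 2 down (median log2 fold change 0.80). PLAU, the urokinase that turns plasminogen into plasmin, went from 31.5, 33.6 and 32.6 CPM to 468, 438 and 484 CPM (3.83, SE 0.0553, adjusted p = 1.0e-14), and its receptor PLAUR rose by 0.93. TIMP1, an inhibitor of metalloproteinases, rose too, by 1.84. ADAM19, a membrane-bound sheddase, went from 3.47, 3.58 and 3.61 to 79.4, 78.7 and 79.5 CPM (4.47, SE 0.0589). PLAU and ADAM19 were thus high in all 3 knockdown libraries. MMP2 and MMP19 rose by 3.01 and 3.16 and the membrane-type MMP14 by 0.61, while ADAM10 and ADAM12 fell by 0.20 and 0.38.

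Among collagen and laminin chains and their matrix partners 20 of 32 rose and 5 fell (median 0.57; 0.42 without shGFP replicate 3). LAMA3 and LAMB3, chains of laminin-332 in the epithelial basement membrane, rose together: LAMA3 from 683, 682 and 699 to 2001, 2120 and 1954 CPM (log2 fold change 1.56, SE 0.0462, adjusted p = 1.5e-11) and LAMB3 by 1.36. SPARC, a collagen-binding matricellular protein, rose from 27.7, 30.8 and 30 to 114, 108 and 116 CPM (1.93, SE 0.0556). COL18A1 and COL13A1 rose by 2.69 and 2.38 and fibronectin (FN1) by 1.07. The genes that fell were COL8A1, from 65.2, 65.3 and 64.9 to 27.6, 27.5 and 26.8 CPM (-1.26, SE 0.0467), COL27A1 (-0.95), COL12A1 (-0.64), COL4A4 (-0.73) and COL4A3 (-1.47, adjusted p = 0.048 by edgeR).

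Of 18 integrin chains tested 14 rose and 1 fell (median 0.77). ITGA5, which pairs with ITGB1 as a fibronectin receptor, went from 135, 144 and 141 to 632, 657 and 641 CPM (log2 fold change 2.20, SE 0.0480, adjusted p = 6.7e-13), and ITGB1 rose by 0.71. ITGA3, a laminin-332 receptor chain, rose by 1.10 and ITGA2, a collagen receptor chain, by 1.62. ITGB6, known for activating latent TGF-beta, went from 48.2, 46.7 and 51.6 to 137, 133 and 138 CPM, and ITGB2, the beta chain of leukocyte integrins, from 19.1, 21.4 and 18.4 to 73.6, 78.4 and 72.9 CPM. ITGA1, another collagen receptor chain, was the one that fell, from 39.1, 37.8 and 39.7 to 17.0, 17.9 and 18.1 CPM (-1.14, SE 0.0554).

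In epithelial-mesenchymal transition (EMT) epithelial cells loosen their junctions and gain motility. The list of its factors and markers joins mesenchymal genes with epithelial ones, so its counts and median do not measure movement toward EMT. Of 27 genes tested 16 rose and 6 fell (median 0.59). The median was 0.36 with genes under 1 CPM removed and 0.38 in a fit of the 6 libraries alone. HMGA2, an architectural chromatin protein, went from 105, 97.8 and 110 to 539, 524 and 518 CPM (log2 fold change 2.34, SE 0.0514, adjusted p = 6.7e-13), SOX9 from 8.90, 7.34 and 7.68 to 29.5, 31.3 and 28.1 CPM (1.90, SE 0.0794), and the calcium-binding S100A4 from 45.4, 50.1 and 48.3 to 144, 132 and 158 CPM. Vimentin (VIM), the mesenchymal intermediate filament, rose by 1.179, SNAI1, SNAI2 and ZEB1, repressors of E-cadherin, by 1.61, 0.88 and 1.38, and N-cadherin (CDH2) by 0.59. E-cadherin itself (CDH1) did not fall: it rose by 0.16 (SE 0.0396, adjusted p = 0.0035). The epithelial splicing factors went either way by little, with ESRP1 at 0.15 and ESRP2 at -0.14, and besides EHF the falling genes were FOXC1 (-0.44), TCF4 (-0.51), the P-cadherin gene CDH3 (-0.18), KLF5 (-0.15) and ESRP2.

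Keratins, junction genes and contractile genes had medians near 0 and moved in both directions. Of 19 keratins 5 rose and 5 fell. The basal keratins KRT5, KRT14 and KRT17 fell by 0.85, 0.53 and 1.19, KRT17 from 893, 953 and 793 to 360, 387 and 412 CPM, whereas KRT8, a keratin of simple epithelium, rose from 134, 137 and 122 to 202, 219 and 236 CPM (log2 fold change 0.74, SE 0.0656). KRT15 and KRT80 rose by 0.75 and 1.48, and KRT19 rose from 0.154, 0.323 and 0.105 to 0.832, 0.942 and 0.883 CPM, from 16 counts to 65 (ratio 4.56, 95% counting interval 2.61 to 8.45). Of 24 genes of desmosomes and tight junctions 9 rose, among them DSC2, a desmosomal cadherin (1.03, SE 0.0481), CGN, or cingulin (1.49, SE 0.101), and CLDN4, a claudin (1.52, SE 0.118), and 4 fell, namely DSG3 (-0.41), DSP (-0.35), CLDN1 (-0.32) and MARVELD3 (-0.73). Under upper-quartile scaling 7 fell. Of 15 contractile genes the smooth muscle genes TAGLN, MYL9 and ACTA2 fell, TAGLN from 26.2, 29.6 and 28.4 to 9.02, 8.99 and 8.58 CPM (-1.66, SE 0.0777), along with their regulator SRF (-0.64), while FHL2, FHL1 and MYLK rose by 1.47, 1.12 and 1.19.

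**Figure D4:**
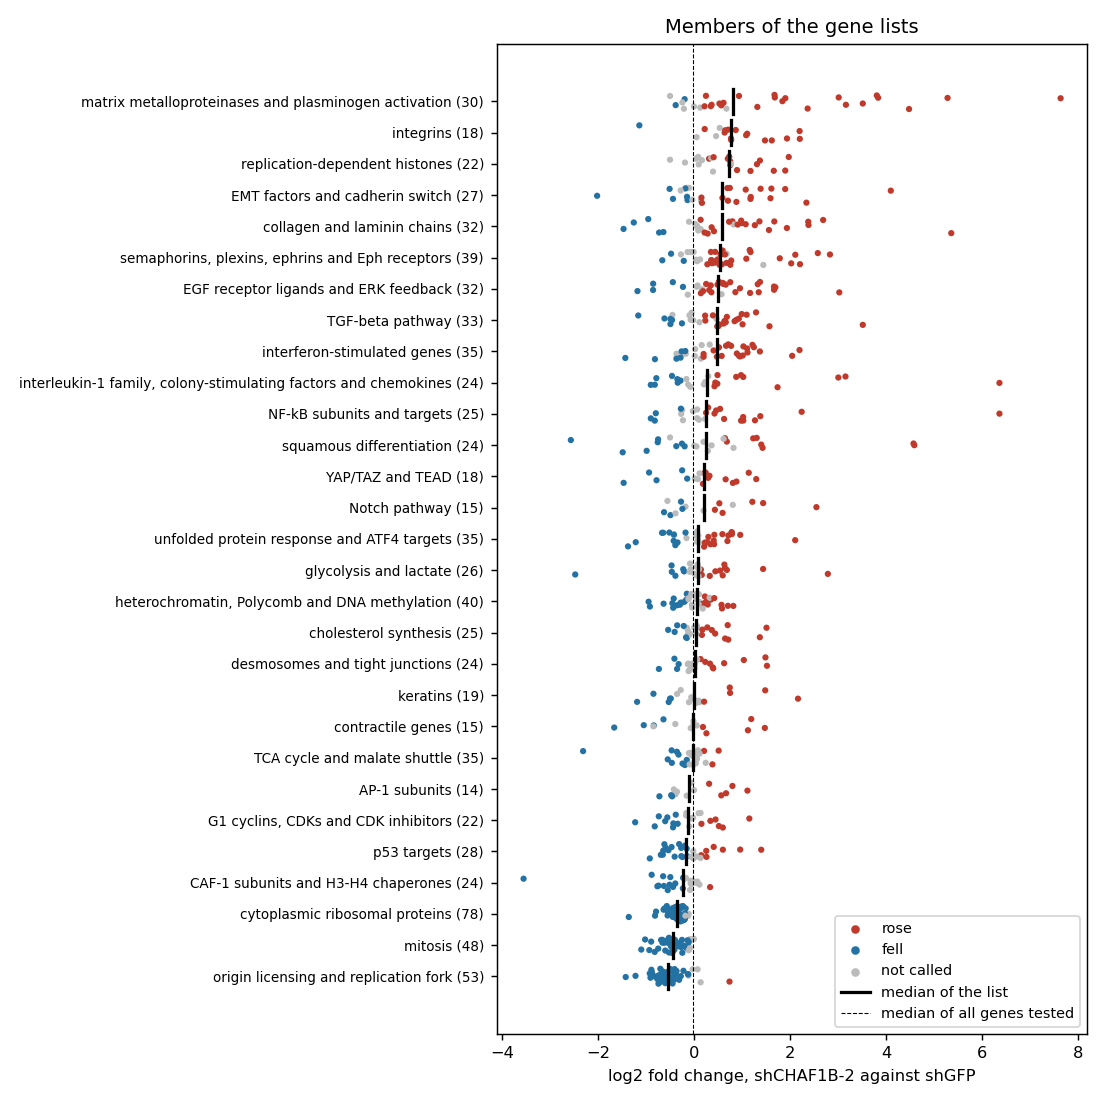
Log2 fold change of shCHAF1B-2 against shGFP for every tested member (points) of the 29 gene lists, with the number tested in brackets; red members rose, blue fell, grey did not pass, the thick bar is the median of the list and the dashed line the median of all genes tested (-0.01). The lists run from origin licensing and replication fork (median -0.54) at the bottom to matrix metalloproteinases and plasminogen activation (0.80) at the top.

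EGF receptor ligands and genes that report or restrain ERK signalling rose in 22 and fell in 5 of 32 cases (median log2 fold change 0.50). The ERK phosphatase DUSP6 went from 125, 124 and 126 to 400, 379 and 431 CPM (1.69, SE 0.0503, adjusted p = 1.5e-11), SPRY4, a Sprouty inhibitor, from 86.7, 88.6 and 86.8 to 270, 283 and 278 CPM (1.66, SE 0.0448), PHLDA1 from 151, 148 and 151 to 474, 475 and 477 CPM (1.66, SE 0.0430), and SPRED3 from 1.54, 1.65 and 1.97 to 14.3, 14.4 and 13.4 CPM. Libraries of a group agreed closely in these genes. The ligands EREG, HBEGF, NRG1 and AREG rose by 1.17, 0.86, 1.34 and 0.66, whereas the ligand EPGN fell by 1.179, SPRY1 by 0.85, SPRY2 by 0.44, DUSP8 by 0.85 and the receptor EGFR by 0.23.

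AP-1, the dimer of FOS and JUN proteins downstream of ERK, had 5 of 14 subunits up and 3 down (median -0.11, and between -0.27 and -0.25 without shCHAF1B-2 replicate 1 or shGFP replicate 3). FOSL1 rose from 52.7, 58.3 and 56.3 to 118, 129 and 114 CPM (log2 fold change 1.11, SE 0.0662), FOS by 0.80, JUNB by 0.66, JUN by 0.57 and MAFF by 0.31, and FOSL2, JDP2 and MAFK fell by 0.46, 0.72 and 0.48. The AP-1 word TGANTCA occurred in 73 of 592 windows of genes that rose at least 2-fold (12.3%), in 6.47% of 232 windows of genes that fell at least 2-fold, and in 4.97% of all windows; in the 100 bases before the start the shares were 6.42%, 2.59% and 1.78%. The stretches below are from risen genes that hold the word, in capitals, upstream of the start, chosen after their values were seen.
INSC (chr11:15112346-15112374, plus strand): aagctttgcctTGAGTCAcaggccttctc
LAMA3, nearer match (chr18:23872940-23872968, plus strand): ccttcctcaccTGAGTCAggcaggcccgg
LAMA3, farther match (chr18:23872884-23872912, plus strand): ctggcacaggcTGACTCAtgtgtgaagtt
PLAUR (chr19:43670338-43670366, minus strand): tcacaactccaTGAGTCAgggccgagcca
MMP10 (chr11:102780678-102780706, minus strand): aaacacatgcaTGAATCAtactgttggtg
TRPV3 (chr17:3557899-3557927, minus strand): gggtgtgggggTGACTCAcacgggccacg

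LAMA3 holds the word at 62 and 118 bases before the start, INSC and MMP10 at 60, TRPV3 at 97 and PLAUR at 179. INSC, an adaptor of spindle orientation, rose by 3.23 on the log2 scale, and MMP10, the stromelysin 2, went from 6 counts in shGFP to 0.832, 1.06 and 1.35 CPM (ratio 14.8, 95% counting interval 6.5 to 41.5). The falling gene SERPINB13 also holds the word, 80 bases before its start.

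In the TGF-beta pathway 20 of 33 genes rose and 6 fell (median log2 fold change 0.48). The receptor TGFBR2 went from 365, 375 and 382 to 722, 710 and 708 CPM (0.93, SE 0.0413, adjusted p = 7.2e-10), the signal transducer SMAD3 from 48.7, 51.0 and 50.4 to 124, 123 and 120 CPM (1.29, SE 0.0442), and INHBA, the activin A subunit, from 12, 9.89 and 12.1 to 34.8, 35.8 and 30.2 CPM. The ligand TGFB1 rose by 0.61 and TGFB2 fell by 0.62. SKI, a repressor of SMAD proteins, fell from 94.1, 97.9 and 81.4 to 39.9, 44.5 and 37.5 CPM (-1.16, SE 0.0782), the receptor ACVR1B by 0.49 and the SMADs of the BMP branch, SMAD1 and SMAD5, by 0.46 and 0.25, whereas the related repressor SKIL rose by 0.99.

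Of 18 genes of the Hippo pathway's YAP and TAZ arm 10 rose and 5 fell (median 0.20). WWTR1, which encodes TAZ, rose by 0.88 and the targets AXL and F3 by 1.29 and 1.14, F3 from 237, 227 and 243 to 525, 523 and 507 CPM. The DNA-binding partners split, with TEAD2 and TEAD3 up by 0.81 and 0.66 and TEAD1 and TEAD4 down by 0.94 and 0.78, and the widely used targets CYR61 and ANKRD1 fell by 0.14 and 1.47 while CTGF rose by 0.24. Of 15 genes of the Notch pathway 6 rose and 4 fell. LFNG, a fringe glycosyltransferase that modifies Notch, rose from 3.47, 3.94 and 2.81 to 9.11, 9.38 and 9.16 CPM (log2 fold change 1.44, SE 0.113), NOTCH2 by 0.59 and JAG1 by 0.43. Of the 4 that fell, NOTCH1 (-0.49), JAG2 (-0.27) and DLL3 (-0.63) had overlapping groups, and between 1 and 2 fell without shCHAF1B-2 replicate 1 or shGFP replicate 1 or 2; JAG2 lost its call without shCHAF1B-2 replicate 1 or 3 or shGFP replicate 1 or 2, and RFNG (-0.24) without shCHAF1B-2 replicate 3 or shGFP replicate 2 or 3.

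Guidance receptors and ligands, the semaphorins, plexins, ephrins and Eph receptors that steer axons and epithelial sheets, rose in 27 and fell in 3 of 39 cases (median log2 fold change 0.53). NRP1, a coreceptor for semaphorins and VEGF, went from 20.3, 20.8 and 18.8 to 135, 145 and 145 CPM (2.83, SE 0.0577, adjusted p = 4.1e-13), SEMA7A from 2.77, 2.08 and 2.74 to 13.4, 15.9 and 15.9 CPM (2.58, SE 0.122) and EPHB2 from 4.35, 3.51 and 3.72 to 15.6, 16.6 and 17.6 CPM (2.11, SE 0.0960). ROBO1, a receptor for SLIT proteins, fell by 0.48; EFNA5 (-0.22) and SEMA5A (-0.66) passed narrowly, and without shCHAF1B-2 replicate 1 or shGFP replicate 1 only 1 gene fell.

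NF-kB subunits and targets rose in 13 and fell in 4 of 25 cases (median log2 fold change 0.25). ICAM1, the adhesion molecule bound by leukocyte integrins, went from 19.8, 19.6 and 19.8 to 52.2, 53 and 48.7 CPM (1.38, SE 0.0524, adjusted p = 1.5e-10), BIRC3, an inhibitor of cell death, from 139, 132 and 156 to 306, 280 and 280 CPM, and the chemokines CXCL8 and CCL20 rose by 1.02 and 0.98. Other targets fell: CXCL1 from 27.7, 30 and 29.1 to 16.2, 13.5 and 16.8 CPM (-0.90, SE 0.0827), CXCL3 by 0.82, PTGS2 by 0.80 and SOD2 by 0.28. The list of interleukin-1 family members, colony-stimulating factors and chemokines had 11 of 24 up and 7 down (median 0.26, 0.16 without shGFP replicate 3 and 0.41 with genes under 1 CPM removed). IL1B rose from 24.5, 26.8 and 27.4 to 85.1, 85.6 and 91.6 CPM (1.74, SE 0.0555), IL24 from 0.617, 0.717 and 0.912 to 6.70, 6.24 and 7.23 CPM, while IL18 fell by 0.46. Of the colony-stimulating factors CSF2 rose, whereas CSF3 fell from 35.4, 39.4 and 36.7 to 23.4, 22.9 and 18.3 CPM (-0.79, SE 0.0882) and CSF1 by 0.35.

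Interferon-stimulated genes rose in 21 and fell in 6 of 35 cases (median log2 fold change 0.47). ISG20, an RNA exonuclease, went from 2.35, 2.11 and 1.79 to 7.49, 8.48 and 9.75 CPM (2.04, SE 0.134), IFIT1 and IFIT3, binders of foreign RNA, rose by 1.37 and 1.03 and the RNA sensor DDX58 (RIG-I) by 0.89. IFI44L fell from 10.2, 10.5 and 12.4 to 4.28, 4.04 and 3.95 CPM (-1.43, SE 0.118), and TRIM22 and OAS3 fell by 0.82 and 0.37; MX1 did not pass (-0.37). The squamous differentiation list was divided, with 8 of 24 up and 8 down. SBSN rose from 14 counts in shGFP to 4.28, 3.65 and 4.62 CPM (ratio 24.6, 95% counting interval 14.4 to 45.5), S100A9 from 39.8, 41.3 and 40.8 to 99.9, 92.9 and 108 CPM (1.30, SE 0.0618) and SCEL by 1.23, and besides SERPINB13 the genes SERPINB3 and PI3 fell by 1.49 and 0.76. Its median was 0.24, but 0.04 with genes under 1 CPM removed and 0.05 in a fit of the 6 libraries alone.

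Genes of heterochromatin, Polycomb and DNA methylation moved in both directions, with 13 of 40 up and 13 down (median log2 fold change 0.05). None changed 2-fold. The list joins writers and readers of repressive marks with the KDM4 demethylases and TET enzymes, so its counts do not measure repression. CBX1, or HP1-beta, fell from 96.3, 98.3 and 96.8 to 48.1, 47.1 and 56.0 CPM (-0.95, SE 0.0639) and the Polycomb chromobox genes CBX6 and CBX2 by 0.92 and 0.64. DNMT3A, a de novo DNA methyltransferase, rose from 8.71, 9.17 and 9.12 to 14.4, 16.4 and 16.7 CPM (0.82, SE 0.0877) and RNF2, the catalytic subunit of Polycomb complex 1, by 0.70.

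The metabolic lists held few large changes beyond single members. In the citric acid cycle and malate shuttle 11 of 35 genes fell and 3 rose (median -0.02), and after MDH2 the falls were modest: CS, citrate synthase, by 0.47 and GOT2, the mitochondrial aspartate aminotransferase, by 0.32. The cytosolic MDH1 did not pass (-0.11). Of 26 genes of glycolysis and lactate transport 11 rose and 6 fell. The glucose transporters SLC2A3 and SLC2A1 rose, SLC2A3 from 0.694, 0.502 and 0.491 to 4.37, 3.34 and 3.95 CPM (2.78, SE 0.181) and SLC2A1 from 100, 108 and 96.6 to 169, 158 and 162 CPM (0.68, SE 0.0557), and hexokinase 1 (HK1) fell by 0.46. In cholesterol synthesis 10 of 25 rose and 6 fell (median 0.04). INSIG1, the sterol-sensing brake on SREBP, went from 74.1, 76.8 and 75.0 to 212, 205 and 225 CPM (1.51, SE 0.0495) and MSMO1 rose by 1.37, while DHCR7 fell by 0.35.

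The unfolded protein response list, which joins endoplasmic reticulum chaperones with targets of ATF4, had 16 of 35 up and 10 down (median log2 fold change 0.09). The chaperone HSPA5 (BiP) went from 513, 533 and 516 to 884, 857 and 948 CPM (0.78, SE 0.0486, adjusted p = 1.9e-08), and EDEM1, HERPUD1 and DNAJC3, of protein degradation and folding, rose by 0.71, 0.78 and 0.69. Among the falling members SLC3A2, the heavy chain that pairs with SLC7A5, went from 724, 773 and 703 to 307, 315 and 325 CPM (-1.22, SE 0.0550), and ASNS, PSAT1 and SHMT2, of asparagine, serine and glycine synthesis, fell by 0.67, 0.52 and 0.43. ATF4 itself did not pass (0.04).

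Cytoplasmic ribosomal proteins fell in 74 of 78 cases and none rose (median log2 fold change -0.35). Their share of all counts was 4.01%, 4.33% and 4.07% in shGFP and 2.99%, 2.99% and 3.39% in shCHAF1B-2, with replicate 3 the highest of its group. RPS7 fell most, from 147, 162 and 152 to 59.0, 58.9 and 61.8 CPM (-1.36, SE 0.0492, adjusted p = 9.6e-11), and RPL13A and RPS20 fell by 0.56 and 0.55. Without shCHAF1B-2 replicate 3 the count was 77 and the median -0.41. By exon length 29 of them were in the shortest eighth of genes described above, with a median of -0.37 against -0.09 for all genes of that eighth, and in each of the other eighths that held any, their median was between -0.48 and -0.30. Many have processed pseudogenes, which makes single values uncertain. The share of counts from the mitochondrial genome overlapped between the groups, at 3.15% to 4.09% in shGFP and 3.16% to 4.83% in shCHAF1B-2, with shCHAF1B-2 replicate 3 the lowest of its group.

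The second hairpin was then set against the first, a comparison that does not use the control means. The control libraries did take part in the filter, the scaling and the estimate of the spread. At an adjusted p of 0.05, 0 of 16235 genes (0%) differed by edgeR's quasi-likelihood test, and the counts from DESeq2 and limma-voom were also 0; at an unadjusted p under 0.05 edgeR gave 1800 genes (11.1%), DESeq2 1238 and limma-voom 1705. The smallest adjusted p was 0.42 with edgeR and 0.16 with DESeq2. Without shCHAF1B-2 replicate 3 the unadjusted count was 1118, and without replicate 2 it was 2799. Of 13525 genes with a mean of at least 1 CPM in shGFP or shCHAF1B-2, 13286 had a 95% interval of the difference within 2-fold either way. For 11826 the interval lay within 1.5-fold. For most of these genes a difference of 2-fold or more thus lay outside the interval. These intervals are for each gene alone and are not adjusted for the number of genes.

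CHAF1B itself stood at 3.21 ± 0.623 CPM with the second hairpin and 3.29 ± 0.670 CPM with the first (SD, n = 3 each), a log2 difference of -0.05 (95% interval -0.41 to 0.32). Over CHAF1B and the 25 other genes with the largest rises and falls, the difference between the hairpins ran from -0.62 (KCNG1) to 0.27 (MFAP5), and 22 of the 26 intervals included 0. Those that did not were MMP9, at 10.6 ± 0.318 against 12.9 ± 0.626 CPM (-0.29, interval -0.46 to -0.11), STC1, at 127 ± 2.30 against 139 ± 3.16 CPM (-0.13, -0.22 to -0.04), KCNG1 (-0.62, -1.16 to -0.08) and SERPINB13 (-0.37, -0.71 to -0.02), each lower with the second hairpin and each with an adjusted p of at least 0.42 by edgeR. MDH2 stood at 72.7 ± 2.88 and 75.7 ± 4.36 CPM (-0.06, -0.18 to 0.06). ADAM19 ranked first of all genes by the test of the difference, at -0.22 (-0.31 to -0.13), and its adjusted p was 0.42 by edgeR. Each hairpin's fold changes use the same shGFP libraries, so they are given side by side only: COL6A3 had 5.35 with the second and 5.40 with the first, DEPP1 6.01 and 6.11, CHRNA9 4.59 and 4.45, and EHF -2.02 and -1.99.

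**Figure D5:**
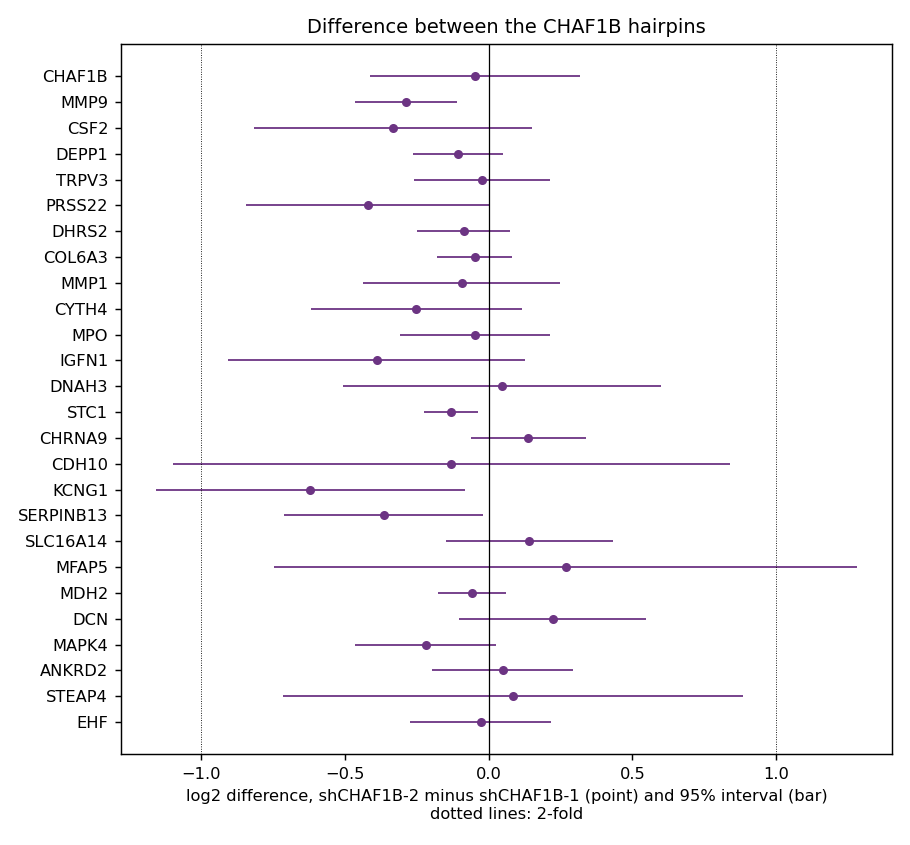
Log2 difference of shCHAF1B-2 minus shCHAF1B-1 (points) with its 95% interval (bars) for CHAF1B and the genes with the largest rises and falls; dotted lines mark 2-fold in either direction. In 22 of 26 genes the bar crosses 0, and only those of CDH10, KCNG1 and MFAP5 reach past a 2-fold line.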

How the data were processed

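Polyadenylated RNA was sequenced from MCF10A cells with the TruSeq RNA kit, version 2, per the labels' protocols. The authors deposited raw counts per gene and library. STAR 2.5.3a, HTSeq 0.8.0, DESeq2 1.18.1 and the builds hg38 and mm10 are named, with no role, per the submitters' processing notes. The table held 26186 genes with human identifiers, none under 7 counts in total, and 26149 matched GENCODE 29, which gave symbols, positions and exon lengths.

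Genes were filtered with filterByExpr (minimum count 10, total 15, proportion 0.7), scaled with TMM and tested in 1 fit of all 9 libraries with edgeR 4.0.16 in R 4.3.3 (biological coefficient of variation 6.24%). CPM levels are TMM-scaled, and means carry the SD. Each SE is the absolute log2 fold change divided by the square root of the F statistic of the quasi-likelihood test. The 95% intervals of the difference between the hairpins use an SE of the same kind. For genes with few counts in a group this SE can understate the counting error. No pair of libraries in a group was alike within sampling noise, so none was treated as a library deposited again. Counting intervals are exact binomial (Clopper-Pearson) at 95% and, like the floor of 3 counts per library, cover counting error only, because copies made by PCR were not told apart by molecular identifiers. Alternatives were RLE and upper-quartile scaling, DESeq2 1.42.0, limma-voom (limma 3.58.1), no filter, 1 CPM in 3 libraries, only the libraries compared, the replicate number as a block, an adjusted p of 0.01, other folds, and leaving out each library. Figures and sequence searches used Python 3.11.15, pandas 2.3.3 and matplotlib 3.10.9.

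The 29 lists, the 7-mers and the rule for named genes were chosen with earlier results of these data known, so list counts are descriptions. Named were CHAF1B; the 14 rising and 12 falling protein-coding genes with the largest fold change, at least 1 CPM in the higher group and groups that did not overlap; the 6 and 6 with the largest change in RPKM by the same criteria; and per list up to 4 rising and 3 falling members with the smallest adjusted p. List members named beyond these were chosen after their values were seen. Not every gene that met the rule is reported here. In data simulated for this comparison (15961 genes), 76% of genes changed 1.5-fold, 90% at 2-fold and 98% at 3-fold and 4-fold were recovered (50 each). A further 7 genes were called. For the second against the first hairpin (15949 genes) the shares were 84%, 90%, 92% and 100%, with 8 others. Every simulated gene had the same spread, and far fewer genes changed than were called between shCHAF1B-2 and shGFP. The shares therefore do not give the recovery or the false calls in the real data.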

Additional observations from a re-analysis of the deposited data

How the results depend on the processing

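Across the other scalings, tools and filters the number of genes that rose ranged from 3486 (adjusted p under 0.01) to 4357 (RLE scaling) and the number that fell from 2874 (adjusted p under 0.01) to 4458 (upper-quartile scaling, which gave 3948 up). Of the same 16235 genes DESeq2 called 4044 up and 3490 down, so the 51.3% called by edgeR was not reached. Leaving out each library in turn gave 3812 to 4299 up and 3469 to 3772 down. With genes under 1 CPM in 3 libraries removed, 656 genes rose and 240 fell at least 2-fold. At 1.5-fold the counts were 1754 up and 1228 down, and at 4-fold 234 up and 22 down. The median of the Notch list changed sign, to -0.00316, with the 1 CPM filter; the cause was not tested beyond the smaller number of genes. Among 205 named genes and 2867 values under alternatives, none changed direction, and 15, all of JAG2, RFNG, EFNA5 or SEMA5A, no longer passed. The comparison of the hairpins gave 0 genes under each alternative listed in the processing.

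The labels give the groups the same replicate numbers. Same-numbered libraries of shCHAF1B-2 and shGFP deviated together at correlations of 0.0434, -0.108 and -0.0536, and differently numbered ones at between -0.145 and 0.187. These values cannot decide whether same-numbered libraries were handled together. With the replicate number as a block, 4182 genes rose and 3799 fell (replicate block; 895 and 376 at least 2-fold), and 0 differed between the hairpins. Depth limits the genes under 1 CPM, which include many of those changed at least 2-fold.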
